A study of Mus musculus with 24 samples.

Results

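The 86 genes described here encode nuclear subunits of the mitochondrial respiratory chain and ATP synthase. They were chosen by name and annotation alone, as protein-coding genes of the deposited count table whose symbols begin as those of the NADH dehydrogenase, succinate dehydrogenase, cytochrome bc1, cytochrome c oxidase and ATP synthase subunits do. They are 86 of 56748 genes in the table, with 39 in complex I, 4 in complex II, 8 in complex III, 17 in complex IV and 18 in complex V. The table also holds 17 pseudogenes with matching names, which drew 6440 of the reads against 3185725 for the 86 genes and were left out. The name rule leaves out Cox4i1, Ndufab1 and the cytochrome genes Cyc1 and Cycs, whose values are given separately. Ndufa4 is counted under complex I by its symbol, although the protein is now placed in complex IV.

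Polyadenylated RNA from mouse T cells of the genotype labelled WT, polarised or activated in culture, was sequenced in bulk. The 24 libraries divide evenly over Th1, Th17, activated CD8 and regulatory (Treg) cells. In the column names the CD8 libraries are written Tc1. Of the 6 libraries of a cell type, 1 received only the vehicle DMSO, and the others each received a different agonist of the kappa-opioid receptor, a G protein-coupled receptor, at 0.1 µM for up to 5 days. The 5 agonists have the codes WMS-83, WMS-76, WMS-75, WMS-64 and WMS-200, all written here without the suffixes of the labels. Those suffixes differ between cell types for every code except WMS-76, and for 3 CD8 libraries the title and the treatment field give different ones. The column names hold only the leading number, by which a code was taken as 1 compound in all cell types. The labels do not say whether the suffixes mark different compounds, so values for a single compound across cell types rest on this reading. The series describes them as derived from perhydroquinoxaline. No combination of cell type and compound was repeated, and strain, sex, age and the number of animals are not stated in the labels. The libraries of a cell type may share an animal, so p-values measure the spread between these libraries, which may be partly technical. Column names also hold an unexplained number after WT. All Th1 libraries have the number 4 and all CD8 libraries the number 2. Treg with DMSO or WMS-200 has 3, and the remaining 4 Treg libraries have 2. Th17 has 2 with DMSO, 3 with WMS-83, and 1 in the remaining 4 libraries. Total counts ranged from 15188284 to 21946887 per library.

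Complex I passes electrons from NADH, and complex II passes them from succinate, to ubiquinone. Complexes III and IV carry them through cytochrome c to oxygen, and the proton gradient built on the way drives complex V, the ATP synthase. The catalytic centres of complexes III and IV and part of the membrane arm of complex I are encoded by mitochondrial DNA, while the genes described here are transcribed in the nucleus. In T cells, activation raises both glycolysis and mitochondrial respiration, and regulatory T cells are known for their reliance on oxidative metabolism.

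The Treg libraries and 1 Th17 library stand apart before any subunit is considered. Levels are given as CPM, the count per 1000000 reads of a library total scaled by edgeR's TMM method. The cytosolic ribosomal protein transcripts summed to between 13445 and 23662 CPM in the 6 Treg libraries, and to between 93018 and 135253 in the other 18. The Th17 library with WMS-75 had the lowest ribosomal sum of its cell type, 93018 CPM, and the highest sum of mitochondrially encoded transcripts, 4851 CPM. Summed over its list, the markers were high in each labelled cell type, although single markers went the other way. The 4 Treg markers, Foxp3 among them, summed to 1295 to 1584 CPM in Treg and to at most 167 CPM elsewhere. The 4 Th17 markers summed to 1091 to 1427 CPM in Th17 and to at most 256 CPM elsewhere. The 4 CD8 and cytotoxic markers summed to 2515 to 2718 CPM in CD8 and to at most 440 CPM elsewhere. The 4 Th1 markers, which include Ifng, were high in Th1 at 943 to 1158 CPM and also in CD8 at 1848 to 2001 CPM. Of these, Cxcr3 averaged 16.7 CPM in Th1 and 20.1 to 29.9 CPM elsewhere. The Th17 marker Ccr6 averaged 57.1 CPM in Treg and 31.6 CPM in Th17. The 3 markers of CD4 cells summed to 293 to 335 CPM in CD8 and to 665 to 1066 CPM elsewhere. The 5 B cell markers reached 11.8 CPM and the 5 myeloid markers 3.28 CPM at most in any library. The 4 stromal markers summed to 44 to 57 CPM in Treg and 11.3 to 21.9 CPM elsewhere, almost all of it Pecam1, which T cells also express. Of the other stromal markers, Col1a1 averaged 1.85 CPM in Treg and 0.357 to 0.797 elsewhere, Col1a2 averaged 0.281 CPM in Treg and 0.0459 to 0.168 elsewhere, and Dcn was at 0 in Treg and at most 0.192 CPM elsewhere. Their part in the results was not tested.

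The promoters of 6 subunit genes are shown because these genes belong to isoform families whose shares differ between the cell types in the results that follow. They are the 3 genes for the c subunit of ATP synthase, and Cox6a1, Cox6b1 and Cox6b2 of complex IV. Each sequence is the 250 bases before the annotated start from RefSeq on GRCm38.p6, read 5′ to 3′ on the minus strand, on which all 6 genes lie. Capitals mark matches on either strand to 4 short motifs of factors known to act on respiratory genes. These were GCATGCGC for NRF1, CCGGAAG for the ETS family with GABP, AAGATGGC for YY1 and AAGGTCA for the ERR receptors. The closing AAG of CCGGAAG opens AAGATGGC and AAGGTCA, so neighbouring matches can overlap, and a match to GCATGCGC on both strands runs together as GCGCATGCGC.
Atp5g1: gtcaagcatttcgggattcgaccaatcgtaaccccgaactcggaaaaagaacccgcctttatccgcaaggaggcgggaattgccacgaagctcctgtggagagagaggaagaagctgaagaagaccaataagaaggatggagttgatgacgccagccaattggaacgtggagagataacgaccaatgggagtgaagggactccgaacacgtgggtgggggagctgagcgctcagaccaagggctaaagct
Atp5g2: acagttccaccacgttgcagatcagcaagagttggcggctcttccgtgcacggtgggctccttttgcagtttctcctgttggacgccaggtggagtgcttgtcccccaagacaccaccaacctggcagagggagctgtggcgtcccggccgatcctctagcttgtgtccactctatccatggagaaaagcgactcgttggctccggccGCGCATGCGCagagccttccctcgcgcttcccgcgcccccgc
Atp5g3: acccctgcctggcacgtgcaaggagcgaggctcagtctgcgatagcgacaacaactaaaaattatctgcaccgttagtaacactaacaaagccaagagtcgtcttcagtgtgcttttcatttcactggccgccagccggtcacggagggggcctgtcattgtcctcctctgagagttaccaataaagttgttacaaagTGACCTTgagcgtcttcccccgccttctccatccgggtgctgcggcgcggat
Cox6a1: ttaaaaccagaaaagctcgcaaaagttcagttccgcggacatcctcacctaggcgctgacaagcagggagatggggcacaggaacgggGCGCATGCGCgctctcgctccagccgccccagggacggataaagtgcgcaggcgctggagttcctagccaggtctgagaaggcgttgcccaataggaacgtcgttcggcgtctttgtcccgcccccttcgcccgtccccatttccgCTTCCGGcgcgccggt
Cox6b1: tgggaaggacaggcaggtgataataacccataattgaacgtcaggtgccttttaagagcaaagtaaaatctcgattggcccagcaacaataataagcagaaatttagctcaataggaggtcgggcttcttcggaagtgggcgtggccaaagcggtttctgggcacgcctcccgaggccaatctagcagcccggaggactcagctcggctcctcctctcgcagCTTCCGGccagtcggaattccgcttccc
Cox6b2: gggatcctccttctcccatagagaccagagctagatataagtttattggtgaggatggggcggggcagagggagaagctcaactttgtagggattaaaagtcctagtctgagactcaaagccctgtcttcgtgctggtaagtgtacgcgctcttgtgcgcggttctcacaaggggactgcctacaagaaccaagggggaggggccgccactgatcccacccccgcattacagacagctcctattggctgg

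The Atp5g1 stretch lies at chr11:96075632-96075881, that of Atp5g2 at chr15:102671048-102671297 and that of Atp5g3 at chr2:73911327-73911576. The Cox6a1 stretch lies at chr5:115348959-115349208, that of Cox6b1 at chr7:30626115-30626364 and that of Cox6b2 at chr7:4753095-4753344. Atp5g2 and Cox6a1 hold GCATGCGC, Atp5g3 holds AAGGTCA as TGACCTT, and Cox6a1 and Cox6b1 hold CCGGAAG as CTTCCGG. None of the 4 motifs is present in the stretches of Atp5g1 and Cox6b2. Of 85 different subunit symbols, 69 had a promoter in the RefSeq table, with 300 bases from 250 before to 50 after the start. Among these 69, GCATGCGC was present in 10 (14.5%), against 3.93% of 17491 protein-coding genes with a window of the same length. CCGGAAG was present in 17 (24.6% against 12.9%), AAGATGGC in 10 (14.5% against 3.57%) and AAGGTCA in 8 (11.6% against 4.73%). These are matches of letters, not measured binding.

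The first comparison asks how the respiratory chain is expressed in the 4 cell types. Treg cells had far less of these transcripts than the other T cells. The 86 genes summed to 8999 ± 353 CPM in Th1, 8766 ± 392 in CD8, 8038 ± 815 in Th17 and 2917 ± 356 in Treg (SD, n = 6 each). The Treg libraries ranged from 2360 to 3371 CPM and lay below all 18 others, of which the lowest was the Th17 library with WMS-75 at 6595 CPM. The mean Treg sum was 33.9% of the mean of the other cell types. It was 28.4% for complex V, 30.7% for complex IV, 34.8% for complex III, 41.7% for complex I and 50.3% for complex II. For the sum of all 86 genes the order of Th1, CD8 and Th17 was not separated beyond the spread, since their ranges overlapped. For complex V the ranges of Th1 (4023 to 4430 CPM) and Th17 (2950 to 3949 CPM) did not overlap. The CD8 range (3821 to 4397 CPM) overlapped both. In the other complexes the ranges of these 3 cell types overlapped. In bulk RNA, fewer cells of a type and less of a transcript per cell cannot be told apart.

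**Figure D1:**
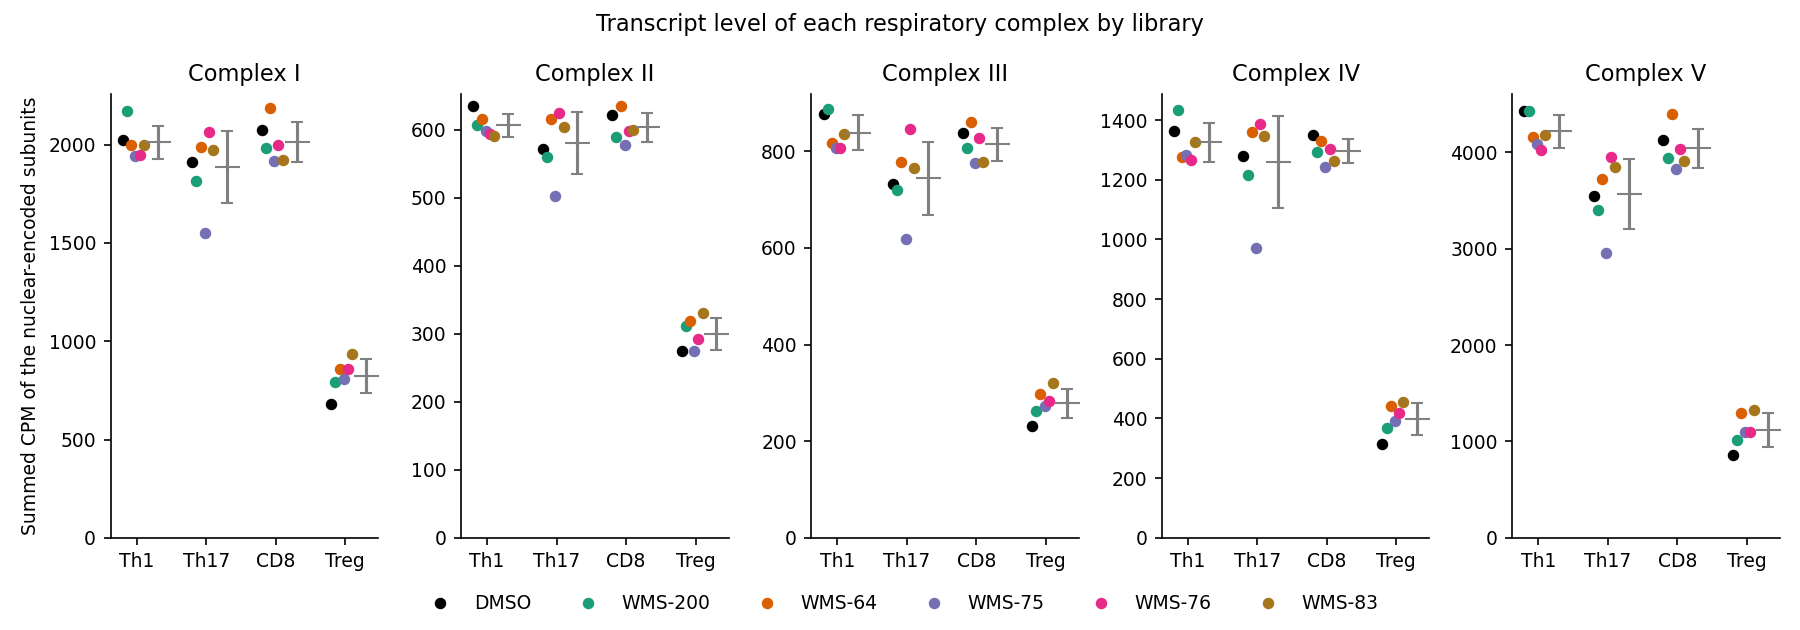
Summed CPM of the nuclear-encoded subunits of each complex (vertical axes from 0) in the 24 libraries, by cell type, coloured by treatment, with the mean and SD of 6 libraries in grey. The 6 Treg points lie lowest in every panel, with DMSO at 861 CPM for complex V, and the Th17 library with WMS-75 lies lowest among the other 18 libraries.

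Complex V made up 46.9% ± 0.373 of the summed CPM in Th1, 46.1% ± 0.362 in CD8 and 44.4% ± 0.431 in Th17, but 38.2% ± 1.53 in Treg (SD, n = 6 each). Complex II took 10.3% ± 0.868 of the sum in Treg and 6.74% to 7.23% on average elsewhere, and complex I took 28.2% ± 0.887 in Treg and 22.4% to 23.4% elsewhere. For both complexes the Treg libraries lay above all others, with shares of complex I from 26.7% to 29.1% in Treg and at most 23.8% elsewhere.

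Of the 86 genes, 80 passed the filter on low counts and were tested in edgeR's quasi-likelihood model. In Treg against the mean of Th1, Th17 and CD8, 77 of the 80 were lower and 1 was higher at an adjusted p below 0.05. Over all 15885 genes tested, 37.9% were called lower and 42.6% higher. The median log2 fold change was -1.68 for the 80 subunits, a 3.19-fold difference, and 0.10 for all genes. For 75 of the 80, all 6 Treg libraries lay below all 18 others, an order that 21.9% of all genes showed. The 5 exceptions were Cox6b2, Cox7a1, Ndufb2, Ndufs1 and Ndufv3. Scaling by library totals alone moved the median of all genes to 0.45 and the share of calls that were higher from 52.9% to 66.7%. The subunit median was then -1.33.

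**Figure D2:**
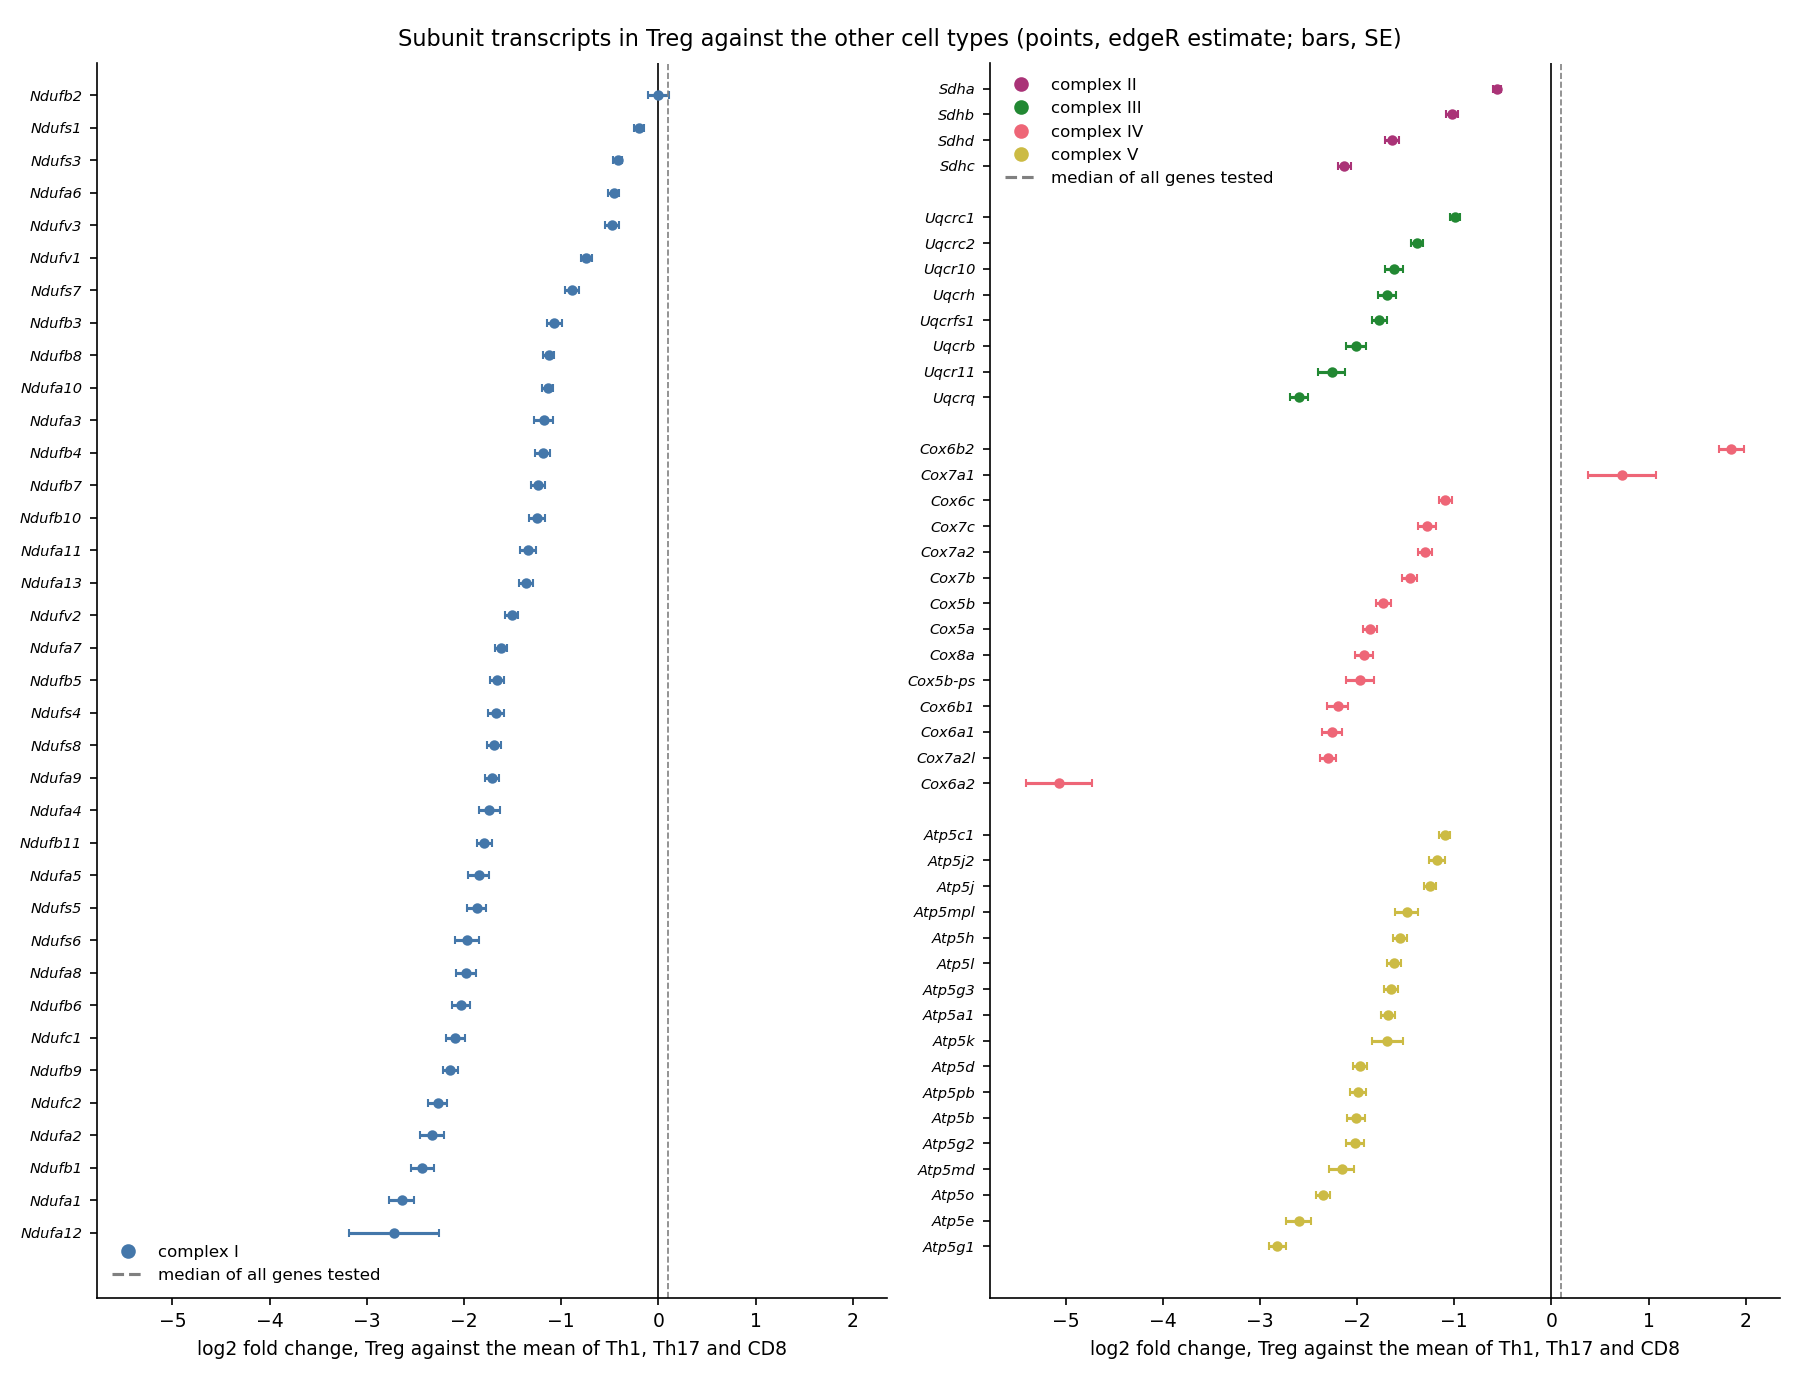
The log2 fold change of 79 of the 80 tested subunits in Treg against the mean of Th1, Th17 and CD8 (horizontal axis; points, edgeR estimates; bars, SE), by complex and ordered within it. Nearly all points lie left of the dashed median of all genes at 0.10, with Cox6b2 at 1.85 the only called rise and Cox6a2 at -5.07 the farthest fall.

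Complex V had the lowest remaining share in Treg, and all 17 tested genes were lower. Atp5b, the catalytic beta subunit of the F1 head and the most abundant of the transcripts per kilobase in Th1, had between 1466 and 1612 CPM in Th1 (median 1503), between 1384 and 1588 in CD8 (median 1448) and between 1044 and 1365 in Th17 (median 1249). In Treg it ran from 240 to 429 CPM (median 353), far below every other library. Its log2 fold change was -2.01 ± 0.09 (SE, adjusted p = 3.83e-17 in edgeR). Atp5a1, the alpha subunit that alternates with beta in the head, fell by 1.68 ± 0.07 on the log2 scale, and Atp5c1, the gamma shaft that turns inside it, fell by 1.10 ± 0.06. All 5 genes of F1 and all 12 tested genes of the membrane and stalk part were lower in Treg, with medians of -1.97 and -1.67. Per kilobase, Atp5b stood at 360 CPM and Atp5a1 at 285 in Th1, and in Treg they were level at 82.9 and 83.5.

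The ring of c subunits that carries protons through complex V is encoded by 3 genes, which differ in the part that directs import into mitochondria and give the same mature protein. They fell to different degrees in Treg. Atp5g1 (11:95959678-95966496 as the file gives it, build not stated) had 86.9 to 106 CPM in Th1, 83.6 to 96.3 in CD8, 60.4 to 77.9 in Th17 and 8.6 to 15.6 in Treg. With a log2 fold change of -2.82 ± 0.09 (adjusted p = 5.36e-20) it was the deepest fall of complex V. Atp5g2 fell by 2.02 ± 0.09 and Atp5g3 by 1.65 ± 0.07. Counted per kilobase, Atp5g1 gave 8.81% ± 0.546 of the family in Th1, 9.22% ± 0.6 in CD8, 7.37% ± 0.605 in Th17 and 4.47% ± 0.716 in Treg (SD, n = 6). Atp5g3 gave 50.4% ± 2.07 in Treg and 41.8% to 43% elsewhere on average, so that in Treg it passed Atp5g2 (45.1% ± 1.82). The CD8 library with WMS-64 was an exception among the others, with 38.2% for Atp5g2 and 51.9% for Atp5g3. The crossing depends on the division by gene length. In plain counts Atp5g3 averaged above Atp5g2 in every cell type, with 53% against 36.4% in Treg and 42.1% against 38% in Th1. It was 42.9% against 40.1% in Th17 and 42.8% against 36.5% in CD8. Atp5g1 then gave 10.6% in Treg and 17% to 20.7% elsewhere. The sequences above show that these 3 promoters also differ in the motifs they hold. Whether the motifs bear on the shares was not tested.

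**Figure D3:**
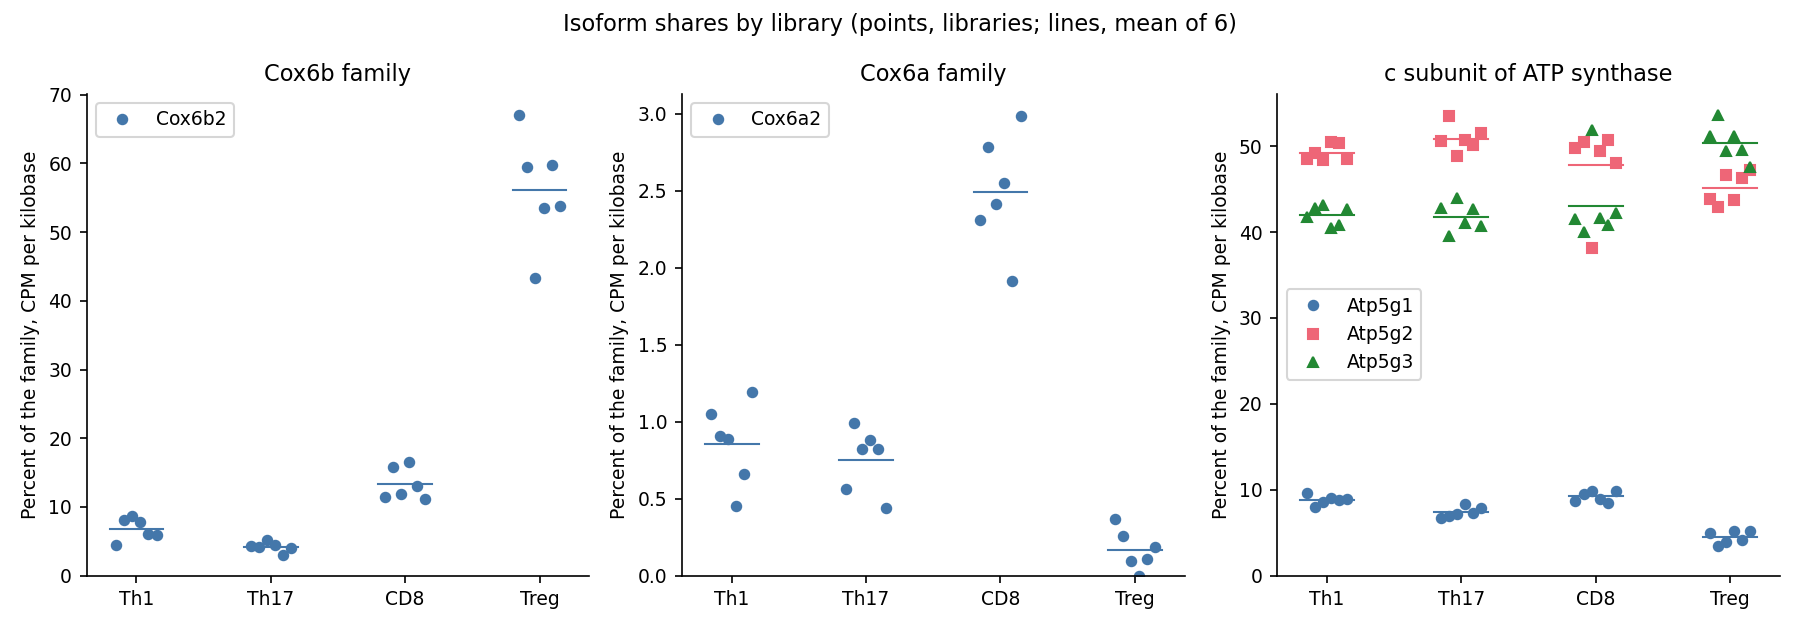
Share of each isoform in its family in percent of CPM per kilobase (vertical axes from 0), by cell type, with 1 point per library and lines at the mean of 6. Cox6b2 gives between 43.4% and 67.1% of its family in Treg and at most 16.6% elsewhere, and Atp5g3 lies above Atp5g2 in all 6 Treg libraries.

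In complex IV 12 of 14 tested genes were lower in Treg and 1 isoform was higher. Cox5a and Cox5b, structural subunits around the catalytic core, fell by 1.87 ± 0.07 and 1.73 ± 0.08 on the log2 scale. Cox6c fell less, by 1.09 ± 0.07, and overlaps Vps13b, which had 54081 reads against 37040 for Cox6c. Cox6a1 ran from 192 to 217 CPM in Th1 and from 29.4 to 55.3 CPM in Treg, a log2 fold change of -2.26 ± 0.10 (adjusted p = 2.29e-16). Cox7a2l, a factor that joins complexes III and IV into supercomplexes, ran from 301 to 428 CPM in Th17 and from 45.5 to 86.5 CPM in Treg, and fell by 2.30 ± 0.08. Cox7a2, Cox7b and Cox8a fell by 1.30 ± 0.07, 1.46 ± 0.08 and 1.93 ± 0.09. Cox5b-ps, which the file annotates as protein coding, had at most 12.6 CPM and is a near copy of Cox5b, so its reads are uncertain.

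Cox6b2, the isoform of subunit 6b known from testis, was the only subunit called higher in Treg. It lies at 7:4754791-4756093 on the minus strand as the file gives it, in coordinates that do not match the GRCm38.p6 promoter above. Treg libraries held 28.9 to 49.6 CPM (median 40.3), CD8 libraries 17.9 to 27.4 (median 22.3), Th1 libraries 6.98 to 13.9 (median 10.7) and Th17 libraries 4.53 to 7.9 (median 6.39). The Treg range lay above all other libraries and the CD8 range above those of Th1 and Th17. The log2 fold change in Treg was 1.85 ± 0.13 (adjusted p = 6.66e-12). The common isoform Cox6b1 went the other way, from 84 to 101 CPM in Th1 to 13.9 to 25.8 CPM in Treg, with a log2 fold change of -2.20 ± 0.11. Per kilobase, Cox6b2 gave 56.2% ± 7.98 of the pair in Treg, 13.3% ± 2.33 in CD8, 6.81% ± 1.65 in Th1 and 4.19% ± 0.691 in Th17 (SD, n = 6). In plain counts the shares of Cox6b2 were 66.5% in Treg, 19.4% in CD8, 10.2% in Th1 and 6.4% in Th17.

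The gene Kmt5c ends 4278 bases from Cox6b2, on the plus strand, and was also higher in Treg, at 108 to 175 CPM against 33.6 to 56.1 CPM in the other libraries. Its log2 fold change was 1.63 ± 0.09 in Treg and -0.11 ± 0.13 in CD8 against Th1 (adjusted p = 0.638), where Cox6b2 rose by 1.10 ± 0.18. Whether reads from this neighbour contribute to Cox6b2 was not tested. The muscle and heart isoform Cox6a2 was a low transcript that was lower in Treg, where Cox6b2 was higher. Like Cox6b2, it was highest in CD8 among the other cell types. It had 607 reads over the 6 CD8 libraries, 190 in Th1, 153 in Th17 and 8 in Treg, where 1 library had none. Its levels were 4.39 to 6.61 CPM in CD8, at most 2.24 CPM in Th1 and Th17 and at most 0.106 CPM in Treg. Cox7a1, another muscle and heart isoform, had 0.0522 to 1.58 CPM in all libraries and was not called in Treg (0.73 ± 0.35, adjusted p = 0.0565). It was called higher there with library totals (1.08), DESeq2 (0.76) and length offsets (1.22).

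Complex I was the largest group, with 36 of 37 tested genes lower in Treg and a median of -1.62. Its 7 conserved core subunits, which bind NADH, the flavin and the iron-sulphur clusters, had a median of -0.81, and its 30 accessory subunits -1.69, a difference that was not tested. The 2 groups overlapped, with the core gene Ndufs8 at -1.69 ± 0.07 and the accessory genes Ndufa6 at -0.46 ± 0.06 and Ndufv3 at -0.48 ± 0.07. With library totals alone, Ndufa6 and Ndufv3 were no longer called. Ndufs1, the largest iron-sulphur subunit, had 50.6 to 62.7 CPM in Treg (median 57.0) and 57.5 to 76.6 CPM elsewhere, so the ranges overlapped. Its log2 fold change was -0.20 ± 0.05 (adjusted p = 0.000989) and turned to a called rise of 0.15 when libraries were scaled by their totals alone. Ndufv1, which binds NADH, ran from 49.7 to 66 CPM in Treg and from 89.2 to 115 CPM in the other libraries, a log2 fold change of -0.74 ± 0.06. Ndufs7, which lies at the ubiquinone site, fell by 0.89 ± 0.07. Ndufv2, an iron-sulphur subunit beside Ndufv1, fell by 1.51 ± 0.07.

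Among the accessory genes the deepest falls were those of Ndufa12 at -2.72 ± 0.46 and Ndufa1 at -2.64 ± 0.13. Ndufb2 was not called, at 2.61 to 5.98 CPM in the other cell types and 3.65 to 6.12 CPM in Treg (log2 fold change 0.00 ± 0.11, 95% interval -0.23 to 0.23). Ndufb2 overlaps Braf and Ndufs1 overlaps Eef1b2 in the file. The partners had 35706 and 443704 reads against 2007 and 28821 for the subunits, and the strand setting of the counting is not given in the sources used here. In all, 15 of the 80 tested subunits overlap a gene with at least 10% as many reads, so their values are less certain.

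Complex II, the only one with no subunit encoded in mitochondria, showed a graded fall. Sdha, the flavin subunit that oxidises succinate, had 170 to 207 CPM in Treg (median 190) and 247 to 296 CPM in the other 18 libraries. Its log2 fold change of -0.56 ± 0.04 (adjusted p = 3.79e-12) was small although the ranges did not overlap. Sdhb, the iron-sulphur subunit, fell by 1.02 ± 0.06. The membrane anchors Sdhd and Sdhc, which bind ubiquinone, fell by 1.64 ± 0.07 and 2.13 ± 0.07, with Sdhc at 17.2 to 30 CPM in Treg and 86 to 114 CPM elsewhere. The difference between anchors and catalytic subunits was not tested in itself.

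All 8 genes of complex III were lower in Treg, with a median of -1.73. The 2 large core proteins moved least, with Uqcrc1 at -0.99 ± 0.05 and Uqcrc2 at -1.38 ± 0.06. Uqcrfs1, the Rieske iron-sulphur protein that passes electrons towards cytochrome c1, ran from 88.9 to 127 CPM outside Treg and from 24.4 to 40.1 CPM in Treg, and fell by 1.77 ± 0.08. Uqcrh, the hinge protein, fell by 1.69 ± 0.09. The small ubiquinone-site subunit Uqcrq fell most, by 2.60 ± 0.09 (adjusted p = 1.74e-19).

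Gene length and the ribosomal protein genes moved with this contrast. Protein-coding genes of at most 1000 bases had a median log2 fold change of -1.13 in Treg, and those over 5000 bases 0.22. The subunits are short, with a median of 1578 bases against 4455 for all protein-coding genes tested. Within each bin of length the subunit median lay below that of all protein-coding genes. It was -1.98 over 20 subunits of at most 1000 bases and -1.51 against -0.28 from 2000 to 3000 bases. Over 5000 bases it was -0.20 against 0.22 and came from only 3 subunits. With offsets that remove each library's trend on length, 77 subunits were again lower and the median was -1.46. The core genes of complex I are longer than its accessory genes, with medians of 2178 and 1234 bases, and with the offsets their medians were -0.70 and -1.48. Across genes, Spearman's rho of length with the fold change was 0.35 over the 80 subunits and 0.25 over 12567 protein-coding genes, given as a description because genes share libraries. The part of library composition or RNA quality in the fall was otherwise not tested.

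**Figure D4:**
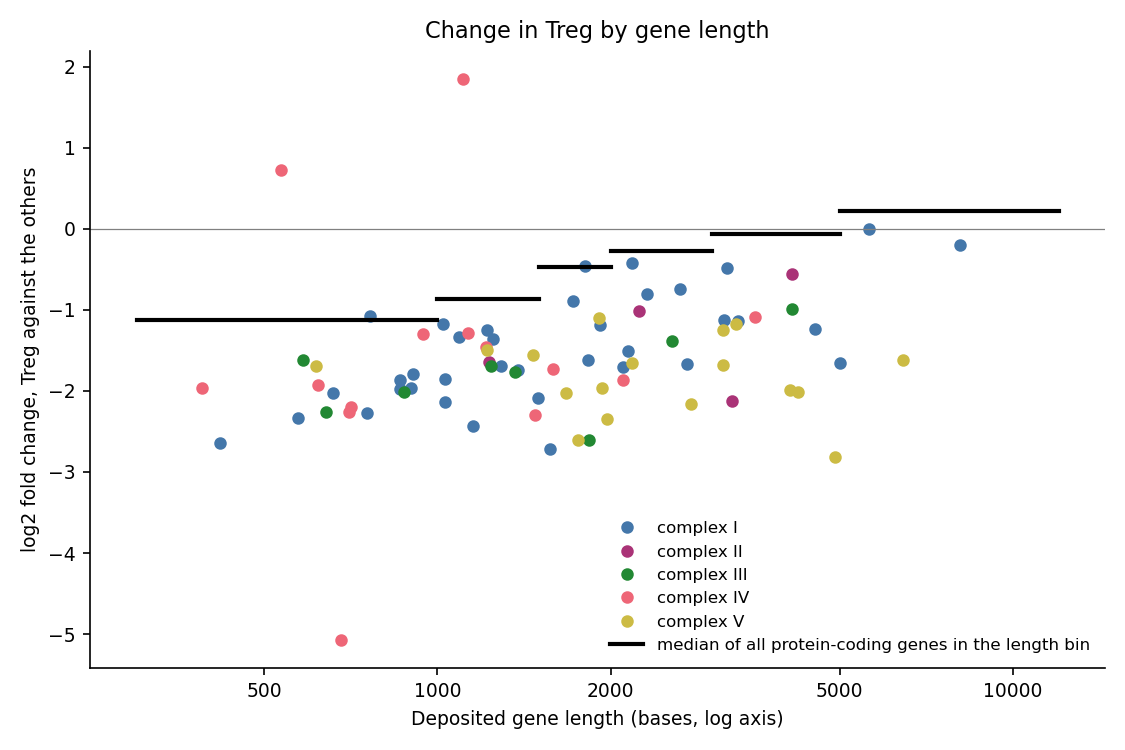
The log2 fold change of each tested subunit in Treg (vertical axis) against the deposited gene length in bases (log axis), coloured by complex, with black bars at the median of all protein-coding genes of each length bin. Most subunits lie below the bar of their bin, and the bars climb from -1.13 for the shortest genes to 0.22 for the longest.

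The other genes of the pathway gave the context. Of the 12 mitochondrially encoded subunits tested, 7 were higher in Treg, 1 was lower and 4 were not called, with a median of 0.57. The cytochrome c oxidase gene mt-Co1 stood at 5814 CPM in Treg and 1172 to 2395 CPM on average elsewhere (1.78 on the log2 scale), while mt-Co3 was lower (-0.58). Nuclear subunits summed to 0.328 ± 0.061 times the mitochondrial ones in Treg, 1.79 ± 0.63 times in CD8, 2.09 ± 0.563 times in Th1 and 3.12 ± 1.21 times in Th17 (SD, n = 6). Poly(A) selection captures mitochondrial transcripts unevenly, so these ratios compare libraries and do not give the amounts in cells.

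Outside the name rule, Cox4i1, the main isoform of subunit 4, fell by 2.11 on the log2 scale, Cycs, cytochrome c, by 2.26, and Cyc1, cytochrome c1, by 0.81. Ndufab1, the acyl carrier subunit of complex I, fell by 0.54, Etfdh, which feeds electrons to ubiquinone, was slightly higher (0.15), and Cox4i2, the lung and hypoxia isoform, was not called (-0.43). Of 46 tested assembly factors, 35 were lower and 5 higher, with a median of -0.93. The higher ones included Cox17, a copper chaperone of complex IV, with 31.8 CPM in Treg and 6.95 to 8.8 CPM on average elsewhere (2.08 on the log2 scale). All 13 tricarboxylic acid cycle genes were lower, from Idh3b at -0.17 to Mdh2 at -1.75, with a median of -0.77. All 9 import and carrier genes were lower, with a median of -1.37 and Timm23, a channel of the inner membrane, at -2.70. Mitochondrial ribosomal proteins were lower in 76 of 77 cases with a median of -1.41, and cytosolic ribosomal proteins in 86 of 95 with a median of -2.67.

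Of 12 tested regulators of these genes, 8 were lower and 3 higher. Esrra, which encodes an ERR receptor, was higher in Treg (0.80 on the log2 scale), as were Ppargc1b (0.76), a coactivator, and Polrmt (0.28), the mitochondrial RNA polymerase. Myc was lower (-1.36), as were Pprc1 (-1.01) and Tfam (-0.74), a factor that packages mitochondrial DNA. Nrf1 was not called (-0.06, adjusted p = 0.262). The 35 tested subunits with at least 1 of the 4 promoter motifs had a median fold change of -1.67, and the 32 with none had -1.64.

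Among Th1, Th17 and CD8 cells the isoforms Cox6a2 and Cox6b2 had the largest called fold changes. Against Th17, CD8 cells had more Cox6a2 (2.01 ± 0.24 on the log2 scale, adjusted p = 9.36e-08 in edgeR) and more Cox6b2 (1.86 ± 0.18, adjusted p = 1.25e-08), and Th1 cells had more Cox6b2 (0.76 ± 0.19, adjusted p = 0.00193). For Cox6a2 and Cox6b2 the CD8 and Th17 ranges given above did not overlap. An F-test called 30 of 80 subunits, against 53.7% of all genes. Th1 was higher than Th17 for 25 subunits and lower for 4, against 24.1% and 23.2% of all genes. CD8 was higher than Th17 for 24 and lower for 3, against 24.3% and 22.8%. The median log2 fold change of the subunits was 0.15 in both comparisons. Without the Th17 library with WMS-75, an alternative chosen after seeing the data, the counts of higher subunits were 16 and 14 and the F-test called 18. Leaving out all 4 libraries with WMS-75 gave 15, 13 and 18. Leaving out those with WMS-64 gave 15 higher subunits in CD8 and 1 lower in Th1 against Th17, and the counts lower in Th1 were 2 without WMS-76 and 1 without WMS-83.

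Ndufv2, an iron-sulphur subunit of complex I, had 119 to 134 CPM in Th1, 108 to 126 in CD8 and 72.8 to 102 in Th17. Its ranges in Th17 lay below both others, with log2 fold changes of 0.56 ± 0.08 in Th1 (adjusted p = 8.72e-07) and 0.45 ± 0.08 in CD8 (adjusted p = 2e-05). Atp5g1 was also higher in both, by 0.48 ± 0.09 and 0.44 ± 0.09. All 5 genes of F1 were higher in Th1 than in Th17, from Atp5a1 at 0.22 ± 0.08 to Atp5e at 0.33 ± 0.13, and Atp5b and Atp5d were higher in CD8. Without the Th17 library with WMS-75, Atp5a1 and Atp5e were no longer called in Th1, nor Atp5b in CD8. In complex III, Uqcrfs1 led in Th1 at 0.24 ± 0.08 and Uqcrq in CD8 at 0.22 ± 0.09, and both calls were lost without that library and with length offsets. For 11 subunits all 6 Th17 libraries lay below all 6 Th1 libraries, an order that 15.8% of all genes showed.

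Some subunits were higher in Th17. Ndufb1, an accessory subunit, ran from 21.7 to 34.2 CPM in Th17, from 15.8 to 19.4 in CD8 and from 18.2 to 28.1 in Th1. Its log2 fold change was -0.74 ± 0.12 in CD8 and -0.49 ± 0.12 in Th1 against Th17. The Th1 value of 28.1 CPM came from the library with WMS-200, and the other 5 Th1 libraries had at most 20.4 CPM. Ndufb1 overlaps Cpsf2, which had 56753 reads against 7846 for Ndufb1, so its values are less certain. Cox7a2l was lower in CD8 (-0.38 ± 0.09) and Th1 (-0.24 ± 0.09) than in Th17. No gene of complex II was called in either comparison, with 95% intervals within 0.32 of 0 on the log2 scale.

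The accessory subunit Ndufa12 varied widely inside Th1 and CD8. In Th1 it had 51.2 CPM with WMS-200, 45.8 with WMS-83 and 10.2 to 18 in the other 4 libraries. In CD8 it had 45.5 CPM with DMSO, 37.4 with WMS-64, 36.1 with WMS-76 and 12.1 to 17.4 in the other 3. The high libraries belong to different treatments in the 2 cell types, and all 6 Th17 libraries had at most 13.4 CPM. Its difference between CD8 and Th17 (1.42 ± 0.45, adjusted p = 0.0166) rests on this spread.

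CD8 against Th1 gave 2 subunits higher and 0 lower, against 8.69% and 7.26% of all genes called. Both were minor isoforms of complex IV, Cox6a2 at 1.72 ± 0.24 (adjusted p = 5.6e-06) and Cox6b2 at 1.10 ± 0.18 (adjusted p = 7.38e-05). For 92.5% of the 80 subunits the 95% interval of the difference lay within 0.5 on the log2 scale on either side of 0. At an unadjusted p below 0.05 there were 8 subunits, against 26.6% of all genes.

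The next comparison asks what the agonists did to these genes. Across the 4 cell types the 5 agonists together called 0 of 80 subunits against DMSO in edgeR, against 0% of all genes, and 0 reached an unadjusted p below 0.05, where 3.17% of all genes did. The smallest p belonged to Sdhc, at 0.15 ± 0.07 on the log2 scale (adjusted p = 0.992). For 95% of the subunits the 95% interval stayed inside 0.5 on either side of 0, and the subunit median was 0.05 against 0.01 for all genes. Each compound alone also called 0 subunits, against 0% of all genes for each.

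At an unadjusted p below 0.05, WMS-64 had 10 subunits where 6.43% of all genes reached it, WMS-83 had 2 (3.9%), WMS-75 had 1 (3.45%), and WMS-200 and WMS-76 had 0 (1.55% and 3.07%). Subunit medians against DMSO were 0.10 for WMS-64, 0.10 for WMS-83, 0.07 for WMS-76, 0.03 for WMS-200 and -0.07 for WMS-75. The leading subunit for WMS-64 was Sdhc at 0.31 ± 0.09 (adjusted p = 0.752), for WMS-83 Ndufs7 at 0.22 ± 0.10 (adjusted p = 0.915) and for WMS-75 Uqcrq at -0.23 ± 0.11 (adjusted p = 1). For WMS-76 it was Ndufs8 at 0.18 ± 0.10 (adjusted p = 0.989) and for WMS-200 Ndufa7 at 0.17 ± 0.09 (adjusted p = 1). These comparisons share the same 4 DMSO libraries.

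Between compounds at the same dose, 10 pairs were compared, with p adjusted over all genes and pairs, and no subunit was called (0% of all tests). The F-test among the 5 agonists also called 0, and 7 subunits had an unadjusted p below 0.05, where 2.8% of all genes did. At an unadjusted p below 0.05, WMS-200 differed from WMS-64 in 4 subunits (4% of all genes), from WMS-75 in 6 (3.31%), from WMS-76 in 1 (2.4%) and from WMS-83 in 2 (4.24%). WMS-64 differed from WMS-76 in 1 (1.65%) and from WMS-83 in 2 (3.25%). WMS-75 differed from WMS-76 in 10 (3.4%) and from WMS-83 in 14 (6.84%), and WMS-76 from WMS-83 in 2 (1.8%). The widest pair was WMS-64 against WMS-75, with a subunit median of 0.19 and 24 such subunits, where 8.7% of all genes reached that p. Its leading subunit, Ndufb9, differed by 0.47 ± 0.11 on the log2 scale (95% interval 0.25 to 0.70, adjusted p = 1). Without the Th17 library with WMS-75 the 24 became 5 and the median 0.11. The counts for WMS-75 against WMS-76, WMS-83 and WMS-200 then became 1, 2 and 2, and the 7 of the F-test became 3. The 95% intervals lay within 0.5 of 0 for 72.5% of subunits in this pair and for 76.2% to 93.8% in the other 9 pairs.

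Inside Treg the agonist libraries stood higher. Against the single DMSO library, 15 of 80 subunits were called higher and 0 lower, where 7.64% of all genes were called higher and 1.18% lower. The subunit median was 0.39 against 0.07 for all genes. The subunit sum was 2360 CPM with DMSO, 2756 with WMS-200, 2956 with WMS-76, 2847 with WMS-75, 3210 with WMS-64 and 3371 with WMS-83. For 61 of the 80 subunits the DMSO library lay below all 5 agonist libraries, an order that 28.7% of all genes showed. This fit takes the 5 agonists as replicates of each other and assumes for the DMSO library the spread of the rest.

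The called genes came from 4 complexes. Ndufa4 had 8.93 CPM with DMSO, 14.7 with WMS-200, 16.4 with WMS-76, 17.8 with WMS-75, 20.1 with WMS-83 and 23 with WMS-64, a log2 fold change of 1.04 ± 0.20 (adjusted p = 0.0028 in edgeR). Atp5b had 240 CPM with DMSO, 309 with WMS-200, 343 with WMS-76, 364 with WMS-75, 423 with WMS-64 and 429 with WMS-83, and rose by 0.64 ± 0.15 (adjusted p = 0.0102). Cox7a2l rose by 0.66 ± 0.16 from 45.5 CPM to between 63 and 86.5 CPM. Among the others were Ndufa8, Ndufa9, Ndufc2 and Ndufs8 of complex I, Uqcr11, Uqcrfs1 and Uqcrh of complex III, Cox5b, Cox6a1 and Cox6c of complex IV, and Atp5pb of complex V, with changes from 0.48 to 1.02.

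Complex II gave 0 calls, with Sdhc at 0.50 ± 0.16 (adjusted p = 0.0502) and Sdha at 0.07 ± 0.10, 95% interval -0.14 to 0.28. Sdha had 183 CPM with DMSO and 170 to 207 CPM with the agonists. The isoform Cox6b2, high in Treg, had 44.1 CPM with DMSO and 28.9 to 49.6 with the agonists (-0.15 ± 0.26). Ndufs1 was at 50.6 CPM with DMSO and 55.8 to 62.7 with the agonists (0.22 ± 0.11, adjusted p = 0.259).

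Other measures moved with these rises. The ribosomal protein sum was 13445 CPM with DMSO in Treg and 17146 to 23662 CPM with the agonists, and 46 of 95 ribosomal protein genes were called higher. Of the 77 mitochondrial ribosomal proteins 15 were called higher, and of the 13 tricarboxylic acid cycle genes 5. The Th17 markers summed to 93.6 CPM with DMSO and 112 to 256 CPM with the agonists, while the 4 Treg markers summed to 1566 CPM and 1295 to 1584 CPM. Shorter genes also tended to stand higher with the agonists. As a description, Spearman's rho of length with the fold change was -0.32 over the 80 subunits and -0.18 over 12567 protein-coding genes. With length offsets the subunit median was 0.38. The part of these measures in the rise was otherwise not tested.

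DMSO and WMS-200 carry the WT number 3 and the other 4 Treg libraries the number 2, so at an equal number only WMS-200 can be set against DMSO. That pair stood at a median log2 ratio of 0.19, against 0.29 to 0.48 for the other compounds. With the number as a block, 0 of the 80 subunits were called. The number and the other 4 agonists cannot be told apart. Leaving out WMS-83 gave 5 calls and leaving out WMS-64 gave 8, and limma-voom gave 7.

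**Figure D5:**
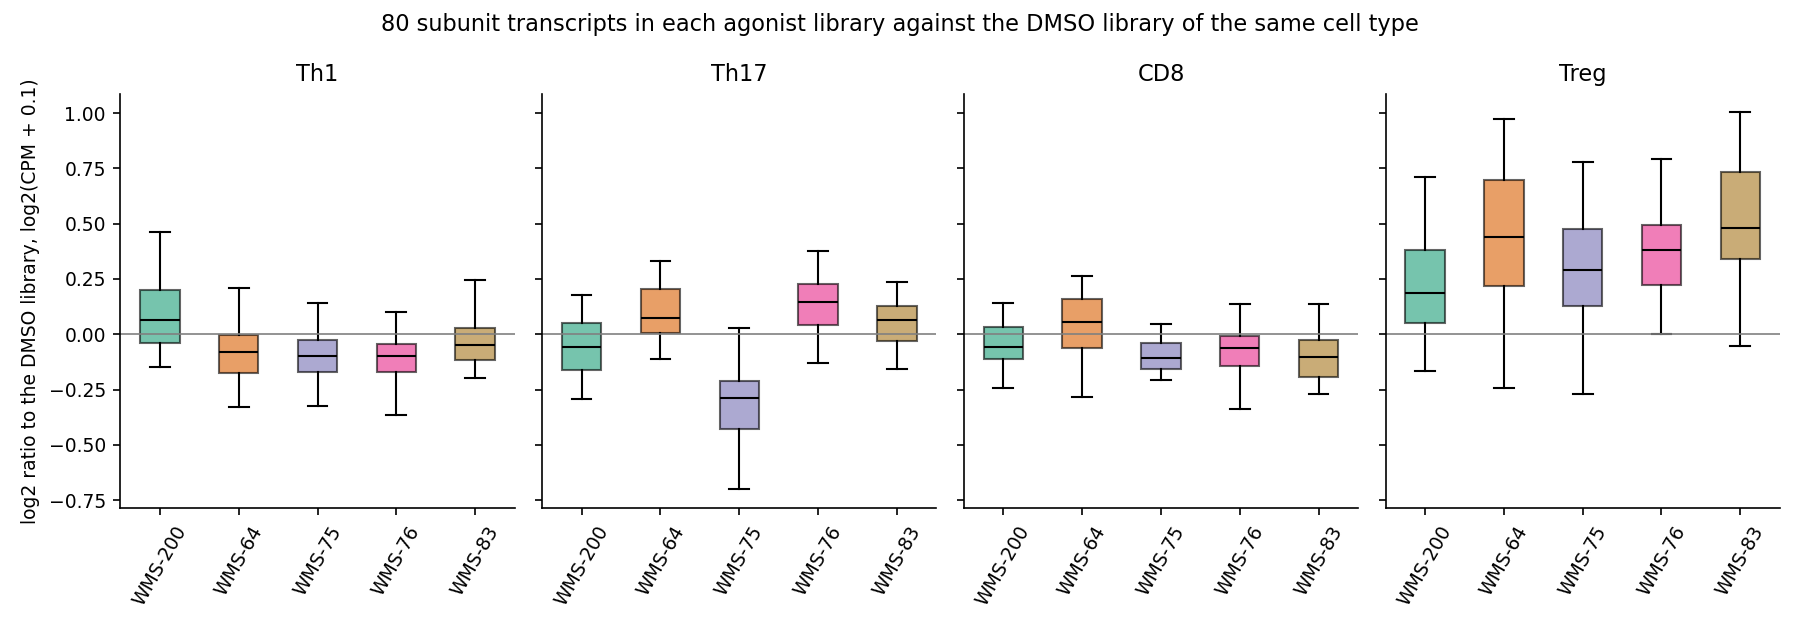
The log2 ratio of 80 subunit transcripts in each agonist library to the DMSO library of the same cell type, on the log2(CPM + 0.1) scale; boxes span the quartiles with the median, and whiskers the central 90% of genes. Medians are 0.19 to 0.48 in Treg, and Th17 with WMS-75 lies at -0.29.

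In Th1, Th17 and CD8 the agonists called 0 subunits each, where 0%, 0.0378% and 0.0063% of all genes were called. At an unadjusted p below 0.05 there was 1 subunit in Th1 and 0 in Th17 and CD8, against 3.25%, 3.34% and 2.01% of all genes. The Th1 gene was Cox6b2, with 6.98 CPM with DMSO and 8.6 to 13.9 CPM with the agonists (0.69 ± 0.32, adjusted p = 1). In Th17 the leading subunit was Ndufv1 at -0.16 ± 0.11 and in CD8 Cox7a2 at -0.21 ± 0.14, both with an adjusted p of 1. Subunit medians were -0.06, -0.01 and -0.05. In Th17 the 4 CD8 and cytotoxic markers summed to 440 CPM with DMSO and to 177 to 346 CPM with the agonists. The part of this difference was not tested. The Th17 library with DMSO shares its WT number with no Th17 agonist library. With the number as a block, which then takes its effect partly from the Treg libraries, the Th17 median was 0.22, with 0 subunits called and 8 at an unadjusted p below 0.05.

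Whether the agonist effect differed between the cell types was tested directly. The interaction called 0 of 80 subunits, against 0.176% of all genes, and 17 subunits had an unadjusted p below 0.05, where 12.9% of all genes did. Ndufa4 came closest (adjusted p = 0.0756), so the rise in Treg was not shown to differ from the other cell types.

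The 6 subunits that did not pass the filter had few or no reads. Ndufa4l2, a hypoxia-induced relative of Ndufa4, had 42 reads over all 24 libraries. Cox8b had 15 reads, Cox7b2 13, Cox8c 8 and Ndufb11b 2, and a second identifier named Atp5o had 0. Of their families, Cox8a and Cox7b had reads enough to test, and Atp5o was tested under its other identifier.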

How the data were processed

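The authors deposited raw read counts per gene for the 24 libraries. Per the submitters' processing notes, reads passed through fastp, HISAT2 and featureCounts, with versions, genome build, annotation and strand setting not given in the sources used here. Coordinates of genes are therefore printed as the file gives them. They do not match the promoter coordinates on GRCm38.p6 for Cox6b2 and Atp5g1, so the sets of coordinates cannot be combined. The gene length is a column of the deposited file. Every value column belonged to 1 of the 24 samples. A library whose title and library name say Th17 with WMS-83 was treated as Th1, from its cell type field, source name and column name.

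The subunits and the gene lists were chosen with earlier results of these data known. The filter filterByExpr, grouped by cell type with a minimum count set to 10, kept 15885 of the 56748 genes. CPM are counts per 1000000 of the TMM-scaled library size. Quasi-likelihood models of edgeR 4.0.16 (R 4.3.3) were fitted to all libraries, with Benjamini-Hochberg adjustment over the genes tested and a threshold of 0.05. The first had a term per cell type and treatment (15 residual degrees of freedom, biological coefficient of variation 0.133). The second had 1 agonist term per cell type (16 degrees of freedom, 0.127). Errors are standard errors from the model or SDs over 6 libraries. The fits were also run on simulated counts, drawn as independent libraries with the spread that edgeR had estimated. Such counts cannot show whether a single DMSO library is typical, nor what the WT number does.

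Alternatives were DESeq2 size factors, library totals, no filter, DESeq2 1.42.0, limma-voom (limma 3.58.1), offsets for gene length from a smooth of span 0.3, each treatment or cell type left out, and the WT number as a block. Named subunits were the catalytic and carrier subunits, the isoform families, the largest called rise and fall of each complex and cell type contrast, the smallest p of each agonist comparison and the untested members. Others, among them Cox4i1, Cox17, Ndufa1 and the other Treg calls, were named after their values were seen. The values of 1 tested subunit are not reported here, although it is part of every count, sum and median.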

Additional observations from a re-analysis of the deposited data

Results flagged for a closer look

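In each cell type the 6 libraries were examined for 1 library far from the other 5, for the summed CPM of each complex and of all subunits and for the CPM of each named subunit. In 176 such groups 10 were marked, close to the share of about 1 in 20 that chance marks. In Th1 the library with WMS-200 was highest for the sum of complex I at 2173 CPM (next 2023) and for Ndufb1 at 28.1 CPM (next 20.4). The Th1 library with DMSO was highest for Atp5g1 at 106 CPM (next 92.8) and for Sdhb at 108 CPM (next 98.5). The Th17 library with WMS-75 was lowest for Cox5b at 57.4 CPM (next 76.5) and for Uqcrq at 57.5 CPM (next 75.9). In Treg, WMS-83 was highest for Uqcrc1 at 98.3 CPM (next 86.6). In CD8 the library with WMS-64 was lowest for Atp5g2 at 122 CPM (next 158) and highest for Atp5g3 at 216 CPM (next 188) and for Ndufs7 at 76.9 CPM (next 67).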

How the results depend on the processing

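The 77 falls in Treg were recovered in number under every alternative run, within 1.5 times. The single rise became 4 with library totals, where Cox7a1, Ndufb2 and Ndufs1 were added. It became 2 with DESeq2 and 2 with length offsets, with Cox7a1 added in each, and 1 to 2 when treatments were left out. The median of -1.68 became -1.33 with library totals and -1.46 with length offsets. With library totals Ndufs1 turned from a fall to a called 0.15, and the falls of Ndufa6, Ndufs3 and Ndufv3 were no longer called. Ndufb2, uncalled at 0.00, ran from -0.13 with length offsets to a called 0.35 with library totals. Without the Th17 library with WMS-75, Th1 was higher than Th17 for 16 subunits, CD8 for 14, and the F-test called 18. With treatments left out in turn these ran from 15 to 29, from 13 to 28 and from 18 to 30, and the falls in Th1 against Th17 from 1 to 4. The 0 falls in CD8 against Th1 became 1 with no filter, 2 without the Treg libraries and 0 to 1 with treatments left out.

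With no filter WMS-75 called 1 subunit, the F-test among agonists 1 and the pairs 4. The 15 calls in Treg became 9 with DESeq2 size factors, 25 with no filter and 7 with limma-voom, and ran from 5 to 21 with agonists left out. With the WT number as a replicate block they became 0; that fit rests on WMS-200 against DMSO, 1 library each. The interaction called 10 with no filter, 2 with DESeq2 and 0 to 3 with agonists left out. Where no alternative's construction shows it, the cause was not tested. Among comparisons of a named gene with an alternative, 303 gave the same call, 40 lost it, 4 gained it and 1 reversed. With 1 library per combination, a compound in 1 cell type has no replicate, and Cox6a2 and Cox7a1 are limited by their counts.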
